A study of Mus musculus with 36 samples.

Results

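Liver gene expression was compared between control mice taken 12 h after lights-on (Zeitgeber time 12, ZT12), when the lights went off, and control mice taken 8 h after lights-on (ZT8), late in the light phase. The comparison used the 6 arrays of controls at ZT12 and the 6 of controls at ZT8, chosen by their titles, which are 12 of the 36 arrays in all. The controls, labelled IRLWT, were male mice of 11 weeks in a C57BL/6J cross that carried loxP sites around an exon of the insulin receptor gene (the IRlox/lox allele), and their hepatocyte receptor gene was intact (IRhep+/+). The line was built to lose the receptor through TTR-CreTam, a tamoxifen-inducible Cre driven by the transthyretin promoter in the liver, but the labels do not say whether controls carried this Cre or were given tamoxifen, and they state that the mice received no treatment. All groups were housed at 21 to 23 °C and fed standard chow ad libitum. The knockouts (IRLKO, hepatocyte deletion of the receptor, IRhep-/-) at ZT8 and ZT12, 6 arrays each, and the controls at ZT16, 6 arrays, are given beside the comparison where named. The labels number 6 replicates in each group and do not describe how the replicates were separated, so the p-values measure the spread between these samples.

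In mouse liver, a feedback loop of transcription factors keeps daily time. CLOCK and BMAL1 (encoded by Arntl) switch on the Per and Cry genes and the REV-ERB genes through E-box sequences, PER and CRY proteins then repress CLOCK and BMAL1, and REV-ERB represses Arntl and Nfil3 while ROR proteins activate them. Around this loop, feeding, body temperature and corticosterone, which all rise in nocturnal rodents towards the night, drive further genes in the liver, among them genes of lipid synthesis, heat shock genes and targets of the glucocorticoid receptor.

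Values are log2 signals of 1-colour Agilent arrays from which the 75th percentile of the array was subtracted, so that 0 is the signal at that percentile. Differences, rises and falls are in log2 units, ZT12 minus ZT8, and a difference of 1 is a doubling. The 75th percentile signal of the 12 arrays lay between 343 and 445 intensity units (382 ± 37.8 at ZT8 and 371 ± 17.5 at ZT12, SD, n = 6 each, exact two-sided permutation p 0.561). Between 53.7% and 59.7% of probes were well above background (56.7% ± 2.61 and 58.1% ± 1.43, exact permutation p 0.260). The first principal component of the 12 arrays held 24.5% of the variance, and time accounted for 92.4% of it. All 10 hepatocyte markers, among them Alb, Apoa1 and Ttr, were well above background on all 12 arrays, and their summed level was 4243 to 4989 at ZT8 and 4771 to 5126 at ZT12 on the linear scale, where 1 is the 75th percentile. Insr, the deleted gene, was lower on every knockout array than on any control array at both times. At ZT8 it ranged from -1.81 to -1.01 (median -1.40) in controls and from -3.54 to -2.94 (median -3.05) in knockouts. The knockout ZT8 array of replicate 3 lay apart from its group. Its root mean square distance from the median of its 5 companions was 0.715, against 0.387 to 0.492 for the others of that group and at most 0.531 for the other 18 arrays at ZT8 and ZT12.

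At lights-off, 3396 of the 22883 genes measured (14.8%) differed from ZT8 at an adjusted p under 0.05 in a limma fit over all 36 arrays with the wash batch as a covariate. Of these, 1757 were higher at ZT12 (7.68% of all genes) and 1639 were lower (7.16%). Most changes were modest. The median size among the called genes was 0.45 on the log2 scale, and 371 genes (1.62%) were called and differed at least 2-fold, 208 upwards and 163 downwards. The 6 arrays of ZT12 did not overlap with the 6 of ZT8 for 2192 genes (9.58%), 1824 of them called. The median difference of all genes was 0.03. Each of the 3 wash batches held 2 arrays of each group, and 3380 of the 3396 called genes (99.5%) differed in the same direction within all 3 batches. The same arrays gave the calls, so this share is a description and no independent test. Among the lists of genes examined, heat shock genes had the highest median difference, and none of the ribosomal proteins was called. The called counts of the lists below are to be read against the shares of all genes, 14.8% in either direction, 7.68% higher and 7.16% lower. All the lists were chosen with earlier results of these data known, so their called shares are descriptions and no independent test.

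**Figure D1:**
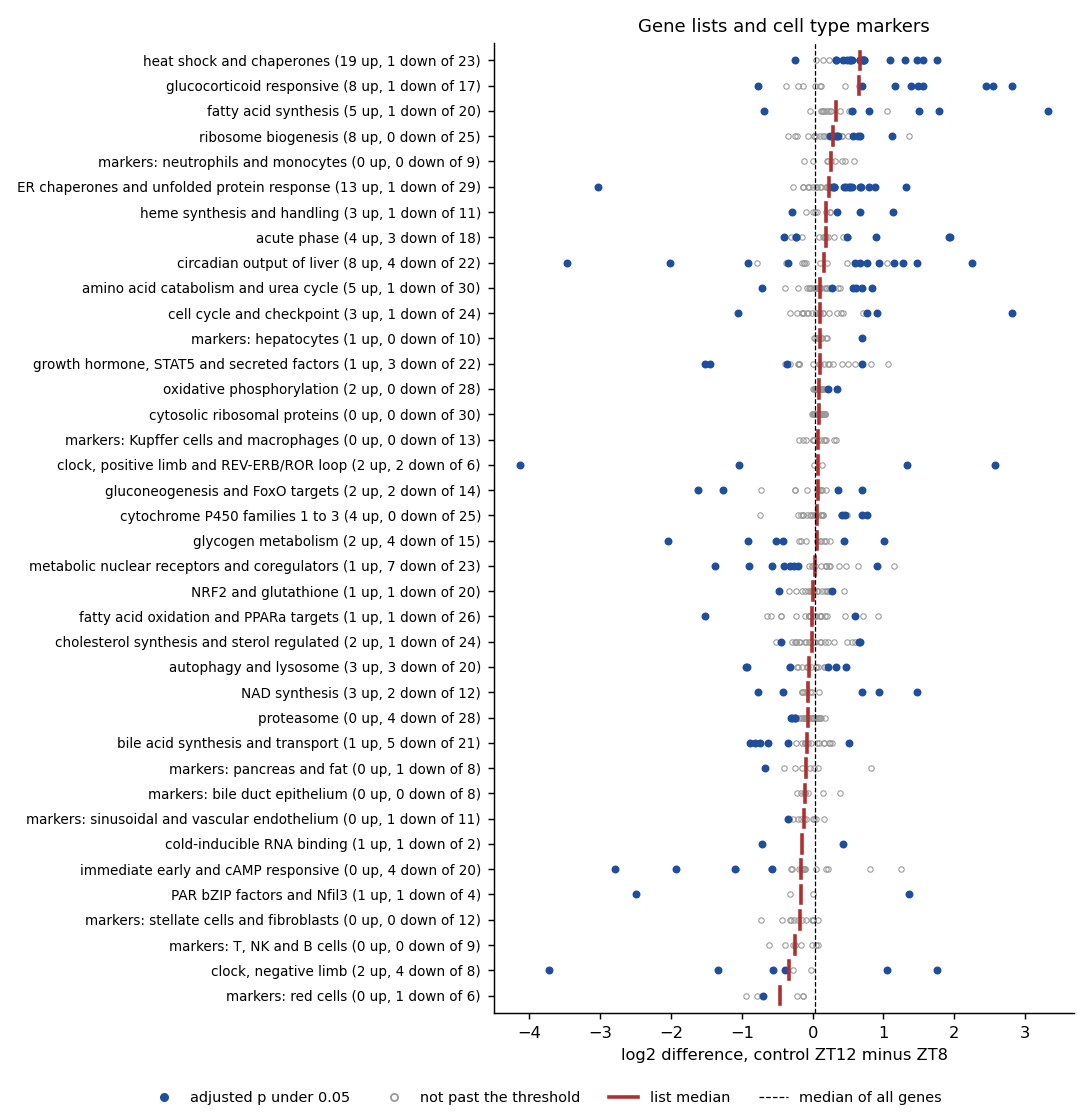
Each row is 1 gene list, each point 1 tested member (filled where the adjusted p was under 0.05), and the x axis is the log2 difference, control ZT12 minus ZT8, with the list median as a red bar and the median of all genes (0.03) as a dashed line. Heat shock genes had the highest list median (0.67) and red cell markers the lowest (-0.46).

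Among genes well above background on all 12 arrays, the largest fall was that of Nr1d1, which encodes REV-ERB alpha, the heme-binding repressor of Arntl. Its level ranged from 0.90 to 1.44 (median 1.16) at ZT8 and from -3.74 to -2.39 (median -2.98) at ZT12, and no ZT12 array reached the lowest ZT8 array. The log2 difference was -4.13 (SE 0.25, adjusted p 2.67e-12), a 17.5-fold fall. Rgs16, a regulator that turns off G protein signals and that is known to follow feeding in liver, ranged from 5.42 to 6.69 (median 5.97) at ZT8 and from 1.32 to 4.31 (median 2.31) at ZT12, a difference of -3.46 (SE 0.71, adjusted p 0.000852). Rgs16 ranged more widely at ZT12 than at ZT8. Its groups did not overlap, which the choice of the largest falls required. Trib3, a pseudokinase of the stress response that binds the kinase AKT, ranged from 2.41 to 3.45 (median 3.24) at ZT8 and from -0.63 to 1.06 (median -0.12) at ZT12, with a difference of -3.03 (SE 0.25, adjusted p 8.72e-10). Egr1, an immediate early transcription factor, ranged from 0.60 to 2.54 (median 1.73) at ZT8 and from -2.01 to 0.31 (median -1.17) at ZT12, a difference of -2.79 (SE 0.49, adjusted p 0.000137).

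The other members of the 15 largest falls had differences of -2.50 to -1.62. They held Dbp (a clock output factor, below), Klf10 (a clock-controlled repressor of glucose genes, -1.93, adjusted p 4.4e-06), Txnip (-1.86, adjusted p 2.34e-05) and its arrestin relative Arrdc3 (-1.62, adjusted p 0.000995). Txnip and Arrdc3 both encode alpha-arrestins, of which Txnip restrains glucose uptake. The falls also held Cdt1, which licenses replication origins (-1.64, adjusted p 2.1e-08), Fbxo21, a ubiquitin ligase subunit (-1.98, adjusted p 3.5e-09), Mrnip (-1.87, adjusted p 2.84e-09) and Unc93a (-1.75, adjusted p 1.91e-06), with Gm15998 and D630024D03Rik at -2.0 and -1.73. The second, dimmer probe of Arrdc3 gave -0.57, and the call of Arrdc3 was lost with the mean of its probes. For Mrnip the dimmer probe gave -0.05 and the mean of both probes -0.96.

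The largest rise was that of Pnpla3, a lipid droplet lipase and acyltransferase that is induced by carbohydrate feeding. Its level ranged from -3.13 to -0.41 (median -1.68) at ZT8 and from 0.35 to 3.15 (median 1.45) at ZT12, and the groups did not overlap although both were widely spread. The difference was 3.33 (SE 0.60, adjusted p 0.000224), a 10-fold rise. The second, dimmer probe of Pnpla3 gave 0.29 (adjusted p 0.753 over all probes), and the mean of both probes gave 1.81. Pdxp, the phosphatase that removes phosphate from vitamin B6, was tighter. It ranged from -4.36 to -3.46 (median -3.93) at ZT8 and from -1.36 to -0.40 (median -1.10) at ZT12, a difference of 2.91 (SE 0.18, adjusted p 3.9e-12). Scara5, a ferritin receptor, ranged from -4.26 to -2.43 (median -3.94) at ZT8 and from -1.79 to -0.47 (median -0.78) at ZT12, a difference of 2.71 (SE 0.40, adjusted p 1.6e-05). Zbtb16 (PLZF), a zinc finger factor known as a glucocorticoid target, ranged from -0.21 to 1.39 (median 0.40) at ZT8 and from 1.61 to 3.66 (median 2.93) at ZT12, a difference of 2.45 (SE 0.34, adjusted p 6.54e-06).

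Lonrf3, a RING finger gene with a daily rhythm in liver, rose by 2.26 (SE 0.17, adjusted p 9.15e-11), with levels of -3.91 to -2.90 (median -3.27) at ZT8 and -1.35 to -0.68 (median -1.09) at ZT12. Nat8f5, of a family of N-acetyltransferases with near-identical copies, rose by 2.37 (adjusted p 2.86e-07). The histone H3 genes H3c15 and H3c14 rose by 2.42 (adjusted p 4.78e-09) and 1.93 (adjusted p 3.46e-07). Copies of histone H3 and of Nat8 genes resemble one another, so their probes may share signal, which was not tested. Tsku, a secreted proteoglycan of the liver, rose by 1.77 (adjusted p 9.05e-07). Acnat2, an amino acid N-acyltransferase, rose by 1.80 (adjusted p 0.0038), Vpreb3 by 2.00 (adjusted p 2.15e-05) and Hsph1, a chaperone taken up below, by 1.76 (adjusted p 7.89e-09). The transcripts 8030431J09Rik and Gm19522 rose by 2.09 and 1.79. The 6 ZT12 arrays lay wholly above the 6 ZT8 arrays for each of the 15 genes, which the choice of the 15 required.

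These sizes depended on the background correction for the dim probes. With normexp correction the differences were 1.45 for Pdxp, 1.46 for Scara5, 1.39 for Lonrf3, 1.26 for Vpreb3 and 1.04 for Gm19522, while their direction and calls were kept. Of the 30 genes, 24 moved by less than 1.5 times under it. None of the 30 lost its call when 1 control array was left out.

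**Figure D2:**
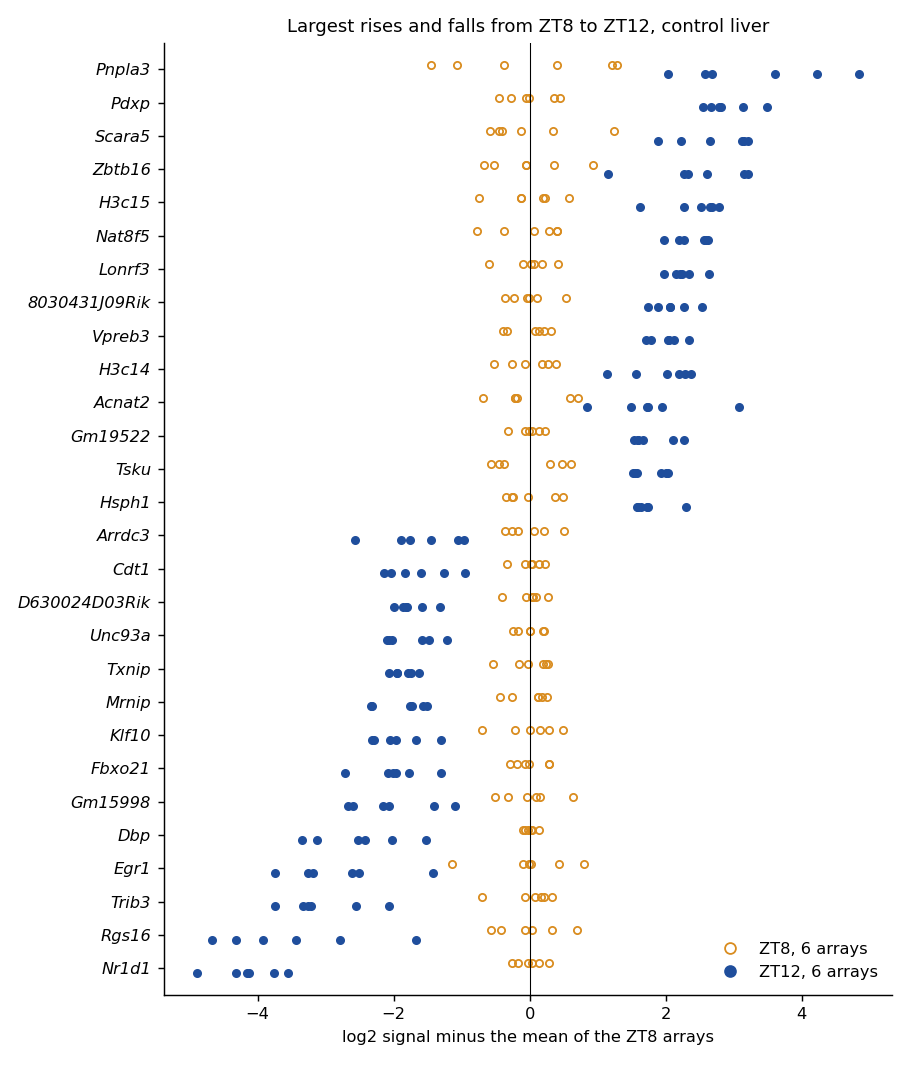
Each row is 1 gene of those with the largest rise or fall, and the x axis is the log2 signal minus the mean of that gene's 6 ZT8 arrays, with open points for the ZT8 arrays and filled points for the ZT12 arrays. Nr1d1 at the bottom falls by 4.13 and Pnpla3 at the top rises by 3.33, and no row overlaps between the times, which the choice of the genes required.

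Clock genes moved in both directions. Of the 8 genes of the negative limb, the Per and Cry genes and their fellow repressors, 2 rose, 4 fell and 2 did not pass the test (median difference -0.34). Of the 6 genes tested of the positive limb and the REV-ERB and ROR loop, 2 rose, 2 fell and 2 did not pass. Of the 4 PAR bZIP factors with Nfil3, 1 rose and 1 fell. The share of called genes over these lists is to be read against the 14.8% of all genes, and since these genes were known to be rhythmic when they were listed, the share is a description.

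To show what these promoters hold, the stretches around a canonical E-box (CACGTG, a palindrome that reads the same on both strands), around D-boxes (TTATGTAA or TTACGTAA, both strands) and around a heat shock element (GAANNTTCNNGAA, both strands, where N is any base) were read from the 250 bases before each start site in RefSeq, build GRCm38.p6. Capitals mark the motif, and the sequence runs 5′ to 3′ on the strand of the gene.
Cry1 (chr10:85185089-85185134, minus strand): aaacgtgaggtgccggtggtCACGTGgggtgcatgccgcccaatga
Ciart (chr3:95882247-95882364, minus strand): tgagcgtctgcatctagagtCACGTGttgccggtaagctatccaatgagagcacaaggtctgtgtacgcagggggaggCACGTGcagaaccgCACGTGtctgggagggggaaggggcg
Bhlhe41 (chr6:145865548-145865593, minus strand): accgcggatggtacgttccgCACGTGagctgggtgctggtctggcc
Per1 (chr11:69098763-69098808, plus strand): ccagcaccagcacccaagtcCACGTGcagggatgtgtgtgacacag
Tef (chr15:81802526-81802571, plus strand): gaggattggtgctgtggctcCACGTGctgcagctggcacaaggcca
Per3 (chr4:151044796-151044890, minus strand): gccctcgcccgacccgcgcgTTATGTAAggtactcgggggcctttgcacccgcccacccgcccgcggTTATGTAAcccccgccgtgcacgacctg
Hspe1 (chr1:55088053-55088082, plus strand): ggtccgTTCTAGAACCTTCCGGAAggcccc
Of the 19 clock genes listed, 16 matched an entry, with 21 start sites. An E-box lay in 6 of those 21 windows (28.6%), belonging to Per1, Cry1, Ciart, Bhlhe41 and Tef, against 1978 of all 32851 windows (6.02%). Ciart held 3 E-boxes and Per3 held 2 D-boxes, a motif found in 0.931% of all windows. These 5 genes with an E-box moved in different ways: Cry1 rose, Ciart and Bhlhe41 fell, and Per1 and Tef did not pass the test. Over all genes with a promoter entry, an E-box lay in 8.15% of windows of genes that were higher at ZT12, 9.47% of those lower and 7.23% of those not called. The heat shock element in the shared promoter of Hspe1 and Hspd1, which run in opposite directions, lies in the windows of both, which are 2 of the 153 windows with this element (0.466% of all windows), and its capitals hold 2 overlapping matches. Of the 25 windows of the heat shock list, only these 2 (8%) held an exact match of this sequence. Hsph1, Hspa1a, Hspa1b, Dnajb1, Stip1 and Fkbp4 held no exact match, and Hsp90aa1 and Hspa8 had no entry. Imperfect elements, and elements outside the 250 bases, were not sought, so these promoters cannot be said to lack heat shock elements. Over all genes with a promoter entry, an exact match lay in 0.479% of windows of genes higher at ZT12, 0.784% of those lower and 0.365% of those not called.

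In the negative limb, Cry1, the repressor whose message peaks late in the cycle, ranged from -4.17 to -3.37 (median -3.91) at ZT8 and from -2.45 to -1.63 (median -2.27) at ZT12, a rise of 1.76 (SE 0.21, adjusted p 4.59e-07). The groups did not overlap, and at ZT16 it was -2.02 to -0.91 (median -1.58). Per2, its partner, ranged from 1.56 to 2.43 (median 2.20) at ZT8 and from 3.00 to 3.28 (median 3.12) at ZT12, a rise of 1.05 (SE 0.15, adjusted p 1.44e-05), and lay at 3.25 to 3.67 (median 3.53) at ZT16. A dimmer probe of Per2 gave 0.39 (adjusted p 0.0626 over all probes). Per1 and Per3 did not pass the test. Per1 was 3.11 to 4.35 (median 3.70) at ZT8 and 3.28 to 4.13 (median 3.64) at ZT12, a difference of -0.02 (adjusted p 0.961), and the ZT12 arrays lay within the range of the ZT8 arrays. Per3 was -0.14 to 0.34 (median 0.04) and -0.46 to 0.02 (median -0.26), a difference of -0.28 (adjusted p 0.271).

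The fellow repressors went the other way. Ciart (CHRONO) ranged from 0.03 to 1.05 (median 0.63) at ZT8 and from -1.81 to -0.14 (median -0.70) at ZT12, a log2 difference of -1.34 (SE 0.30, adjusted p 0.00198), and at ZT16 it lay at -2.58 to -0.25 (median -1.21). Bhlhe41 (DEC2), which competes with CLOCK and BMAL1 for E-boxes, was well above background on all 6 ZT8 arrays and on none at ZT12 or ZT16. With the floor set by the lowest signal well above background on each array, its fall on the signals used here was at least 3.60-fold. The measured means were -3.23 and -6.95, and limma's adjusted p of 1.83e-10 belongs to their difference. That bound is 1.85 in log2 units and depends on the processing. With normexp correction the log2 difference of Bhlhe41 was -0.63 and in the authors' table -1.12, both smaller in size than the bound. Its relative Bhlhe40 (DEC1) ranged from 3.03 to 3.64 (median 3.35) at ZT8 and from 2.66 to 2.95 (median 2.79) at ZT12, a log2 difference of -0.55 (SE 0.13, adjusted p 0.00261). Cry2 ranged from 3.77 to 4.34 (median 4.12) at ZT8 and from 3.37 to 4.08 (median 3.73) at ZT12, a log2 difference of -0.39 (SE 0.10, adjusted p 0.00818). The groups overlapped for Cry2, its 2 dimmer probes gave -0.03 and 0.02, and its call was lost with the mean of the 3 probes.

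In the positive limb, Arntl, which encodes BMAL1, ranged from -4.21 to -2.99 (median -3.84) at ZT8 and from -1.93 to -0.36 (median -1.04) at ZT12, a rise of 2.58 (SE 0.33, adjusted p 1.72e-06). With normexp background correction its rise was 1.33 and that of Cry1 0.85, and both kept their call. On 5 of the 6 ZT8 arrays it was well above background, all ZT12 arrays lay higher, and at ZT16 it was -0.42 to 0.70 (median 0.13). Rora, of the ROR genes, did not pass the test (0.13, adjusted p 0.36). Nr1d2, which encodes REV-ERB beta, ranged from 2.76 to 3.25 (median 3.08) at ZT8 and from 1.54 to 2.77 (median 1.95) at ZT12, a log2 difference of -1.04 (SE 0.17, adjusted p 6.76e-05). The arrays of Nr1d2 overlapped between the times, unlike those of Nr1d1. At ZT16, Nr1d1 was -5.39 to -3.81 (median -4.31) and Nr1d2 0.20 to 1.35 (median 1.09).

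Clock itself depended on the probe. Its brightest probe did not pass the test. It was 1.11 to 1.54 (median 1.27) at ZT8 and 1.24 to 1.60 (median 1.28) at ZT12, with a difference of 0.02 (adjusted p 0.905), and a second probe gave 0.18. The third probe gave 1.25 (SE 0.11, adjusted p 2.9e-09 over all probes). Which of them reads the full message was not tested, and Clock is reported as uncertain.

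Among the output factors, Dbp, an activator of D-box genes, ranged from 6.48 to 6.72 (median 6.59) at ZT8 and from 3.24 to 5.07 (median 4.11) at ZT12, a log2 difference of -2.50 (SE 0.24, adjusted p 9.7e-09), and was at 1.06 to 2.68 (median 1.94) at ZT16. Nfil3 (E4BP4), the repressor that competes with DBP at D-boxes, ranged from 1.24 to 1.74 (median 1.45) at ZT8 and from 2.58 to 3.06 (median 2.89) at ZT12, a rise of 1.36 (SE 0.19, adjusted p 6.43e-06). The message of the activator was thus lower and that of the repressor higher at lights-off, with no overlap between the times for either. Their proteins were not measured. For Tef and Hlf, the relatives of Dbp, the brightest probes did not pass the test, with -0.32 (adjusted p 0.0708) and 0.01 (adjusted p 0.989). On that probe Tef was 6.48 to 6.71 (median 6.61) at ZT8 and 6.15 to 6.69 (median 6.20) at ZT12, and the groups overlapped. Of the 3 dimmer Tef probes, 2 passed, with -0.40 (adjusted p 0.0106 over all probes) and -1.39 (adjusted p 0.00606 over all probes), and the other gave -0.21 (adjusted p 0.491 over all probes), so Tef depended on the probe.

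**Figure D3:**
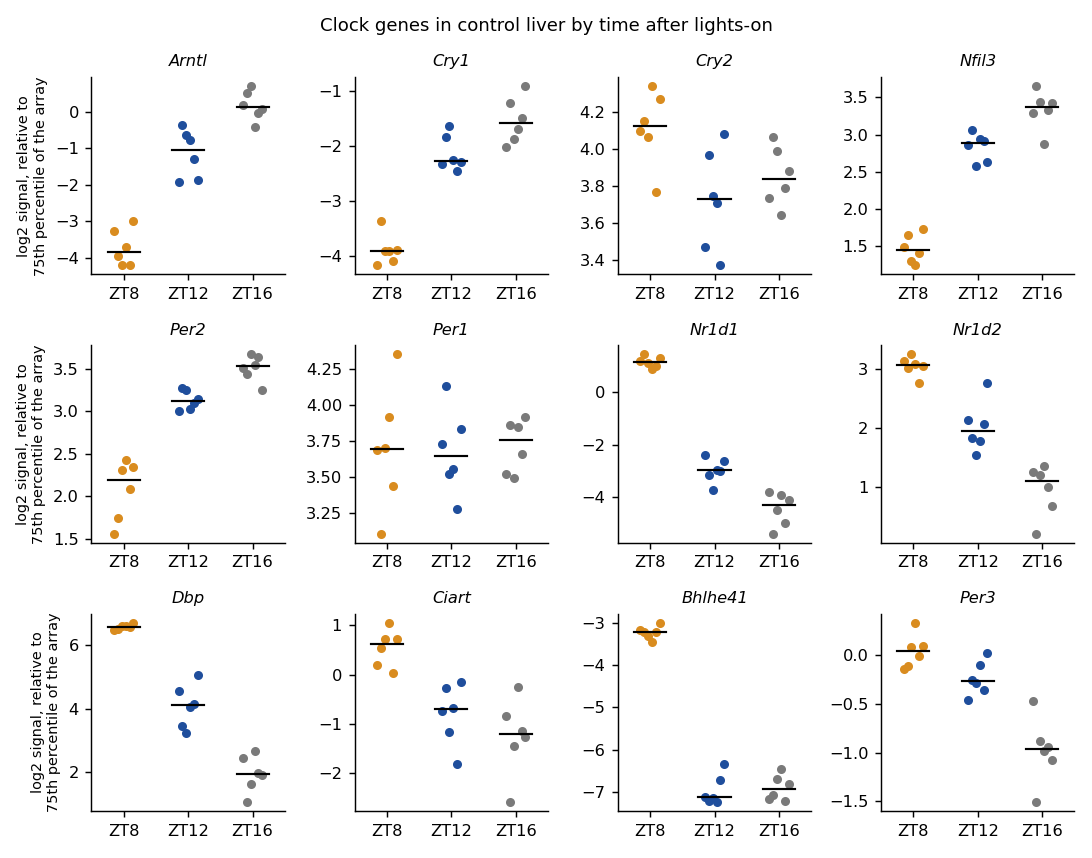
Each panel is 1 clock gene, the y axis is the log2 signal minus the array's 75th percentile, each point is 1 control array and the black bar is the median of 6, at ZT8, ZT12 and ZT16. Arntl, Cry1, Nfil3 and Per2 stand higher at ZT12 than at ZT8, Nr1d1, Dbp, Ciart and Bhlhe41 stand lower, and Nr1d2, Cry2, Per1 and Per3 overlap.

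Of the 22 other genes listed as output of the liver clock, 8 rose and 4 fell (54.5% called, beside 14.8% of all genes). The risers held Nampt, the rate-limiting enzyme of NAD salvage, which ranged from 1.21 to 1.74 (median 1.47) at ZT8 and from 2.57 to 3.09 (median 3.02) at ZT12, a rise of 1.47 (SE 0.18, adjusted p 6.09e-07). Lonrf3, described above, was another. Tspan4, a tetraspanin, rose by 0.93 (adjusted p 8.18e-08), Leo1, a subunit of the PAF complex of transcription, by 0.77 (adjusted p 3.3e-06), and St3gal5, the synthase of the ganglioside GM3, by 1.27 (adjusted p 1.2e-05). Nampt, Tspan4, Leo1 and St3gal5 did not overlap between the times. The fallers held Rgs16. Elovl3 and Usp2, further output genes, gave -0.79 and 0.21 and did not pass the test.

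Most heat shock genes rose. Of the 23 chaperones and co-chaperones tested, 19 were higher at ZT12, 1 was lower and 3 did not pass the test, with a median of 0.67 beside 0.03 for all genes. The called share was 87.0%, beside 14.8% of all genes, a description since the list was chosen with earlier results of these data known. With 1 array left out, 18 to 20 of the list were called. Hsph1 (HSP110), the nucleotide exchange factor of HSP70, ranged from 1.42 to 2.25 (median 1.63) at ZT8 and from 3.35 to 4.05 (median 3.44) at ZT12, a rise of 1.76 (SE 0.17, adjusted p 7.89e-09). Hsp90aa1, the inducible HSP90, ranged from 3.91 to 4.27 (median 4.17) at ZT8 and from 5.26 to 5.78 (median 5.43) at ZT12, a rise of 1.31 (SE 0.12, adjusted p 9.15e-09). Neither overlapped between the times.

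Hspa8, the constitutive HSP70, ranged from 5.39 to 5.62 (median 5.55) at ZT8 and from 6.41 to 6.83 (median 6.61) at ZT12, a rise of 1.09 (SE 0.09, adjusted p 8.72e-10). The inducible HSP70 genes Hspa1a and Hspa1b gave larger but less even changes: Hspa1a ranged from -3.32 to -1.08 (median -2.77) at ZT8 and from -1.83 to -0.13 (median -1.04) at ZT12, a rise of 1.56 (SE 0.42, adjusted p 0.0101), and Hspa1b rose by 1.47 (adjusted p 0.00449). The arrays of Hspa1a overlapped between the times, and its rise was 0.97 with normexp correction. These 2 genes are near-identical copies, so their probes may share signal, which was not tested. The co-chaperones that hand clients between HSP70 and HSP90 rose too: Stip1 by 0.70 (adjusted p 9.5e-08), Fkbp4 by 0.72 (adjusted p 2.02e-06), Dnajb1 by 0.72 (adjusted p 0.00014), Ahsa1 by 0.43 (adjusted p 4.29e-05) and Chordc1 by 0.68 (adjusted p 7.74e-05). Hspa4l rose by 0.72 (adjusted p 0.000614). The constitutive HSP90 gene Hsp90ab1 moved less, by 0.33 (adjusted p 0.00235), and lost its call in the authors' table.

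The mitochondrial pair Hspe1 and Hspd1 share the promoter stretch shown above. Hspe1 (HSP10) rose by 0.33 (adjusted p 0.00706), a call lost under quantile normalization, and Hspd1 (HSP60) gave 0.14 (adjusted p 0.323). Hsf1, the transcription factor of the heat shock response, gave 0.05 (adjusted p 0.802). The 1 gene that fell, Hspa4, changed by -0.24 (adjusted p 0.0418). The call of Hspa4 was lost when any 1 of 8 arrays was left out (highest adjusted p 0.109, without ZT12 replicate 5) and under 6 of the 13 other settings. Of the 2 cold-inducible RNA binding genes, Cirbp fell and Rbm3 rose. Cirbp ranged from 2.49 to 3.02 (median 2.77) at ZT8 and from 1.81 to 2.34 (median 2.10) at ZT12, a log2 difference of -0.72 (SE 0.13, adjusted p 0.00032), while 1 of its 3 probes gave 0.05. Rbm3 ranged from 3.02 to 3.29 (median 3.09) at ZT8 and from 3.31 to 3.69 (median 3.58) at ZT12, a rise of 0.43 (SE 0.08, adjusted p 0.000339). Both are known to be induced by mild cold, and here they moved in opposite directions with no overlap between the times.

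**Figure D4:**
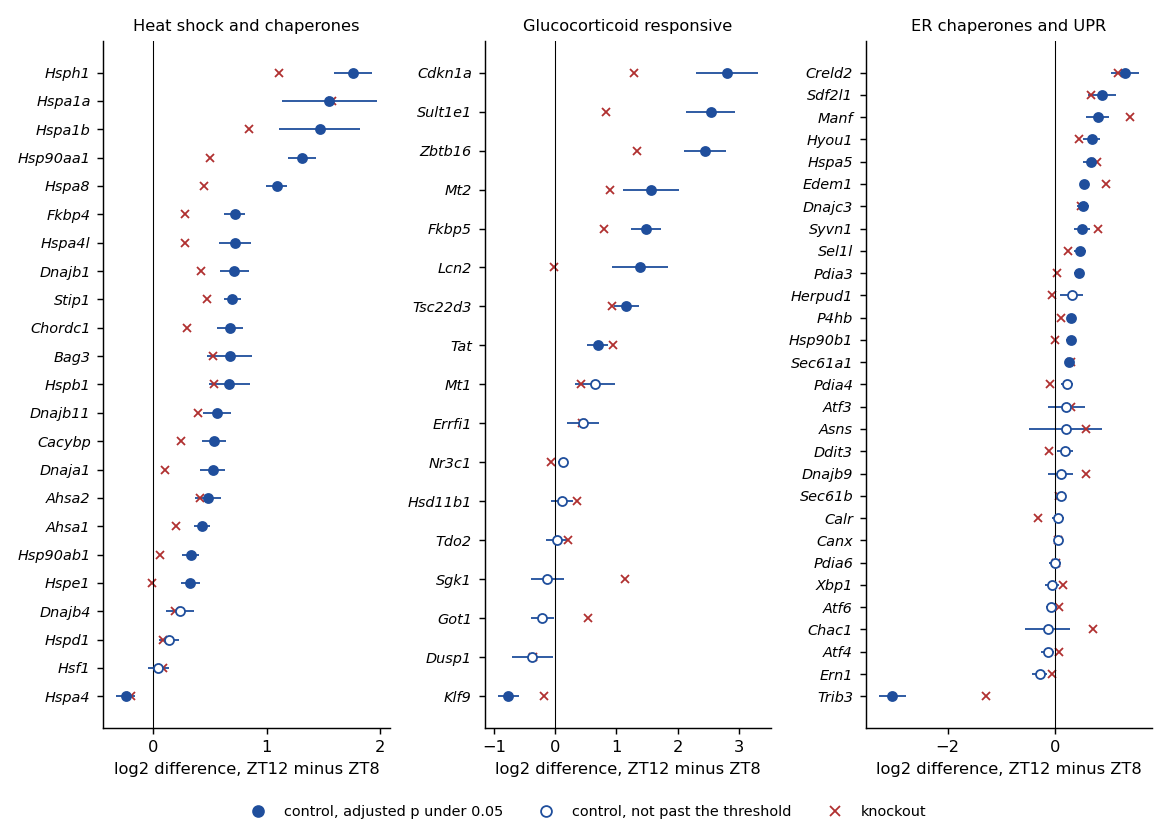
The x axis of each panel is the log2 difference, ZT12 minus ZT8, each circle is 1 list member in control liver with its SE (filled where the adjusted p was under 0.05) and each cross is the same gene in knockout liver, fitted with all 6 arrays of each time. Nearly all heat shock genes lie right of 0 in controls, led by Hsph1 at 1.76, whereas the ER panel holds Trib3 far to the left at -3.03.

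Several targets of the glucocorticoid receptor, the nuclear receptor of corticosterone, rose. Of the 17 listed, 8 were higher, 1 was lower and 8 did not pass (52.9% called, beside 14.8% of all genes), with a median of 0.65. With 1 array left out, 7 to 9 were called. Besides Zbtb16, Fkbp5, the co-chaperone that dampens the receptor, ranged from 2.03 to 2.30 (median 2.14) at ZT8 and from 2.98 to 4.49 (median 3.63) at ZT12, a rise of 1.48 (SE 0.25, adjusted p 7.03e-05) with no overlap. Tsc22d3 (GILZ) ranged from 3.55 to 4.82 (median 3.85) at ZT8 and from 4.16 to 5.85 (median 5.26) at ZT12, a rise of 1.16 (SE 0.21, adjusted p 0.000183), and its groups overlapped. Cdkn1a (p21), an inhibitor of cyclin-dependent kinases, rose by 2.82 (SE 0.51, adjusted p 0.000197), and Sult1e1, the estrogen sulfotransferase, by 2.54 (SE 0.40, adjusted p 3.99e-05). Both were well above background on only 4 of the 6 ZT8 arrays, so the size of their change is uncertain, and with normexp correction it was 1.39 and 1.00. Tat, tyrosine aminotransferase, rose by 0.70 (adjusted p 0.00557).

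Mt2, metallothionein 2, and Lcn2, a secreted iron carrier, rose by 1.56 (adjusted p 0.0185) and 1.39 (adjusted p 0.0366) with wide spread. The call of Mt2 was lost when ZT8 replicate 3 or ZT12 replicate 6 or ZT8 replicate 4 was left out (highest adjusted p 0.0646, without ZT12 replicate 6). The call of Lcn2 was lost when any 1 of 7 arrays was left out (highest adjusted p 0.108, without ZT8 replicate 5) and under 5 of the 13 other settings. Klf9, a Krueppel-like factor induced by glucocorticoids, was the 1 gene that fell. It ranged from 3.16 to 4.01 (median 3.72) at ZT8 and from 2.62 to 3.22 (median 2.87) at ZT12, a difference of -0.77 (SE 0.18, adjusted p 0.00258). Among those that did not pass, Nr3c1, the receptor itself, gave 0.12 (adjusted p 0.341), Sgk1 -0.13 (adjusted p 0.819) and Mt1 0.65 (adjusted p 0.207).

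Many chaperones of the endoplasmic reticulum (ER) rose. Of 29 genes of ER folding and the unfolded protein response, 13 rose and 1 fell (48.3% called, beside 14.8% of all genes, median 0.23). The risers were mainly folding factors: Creld2 ranged from 3.80 to 4.83 (median 4.13) at ZT8 and from 4.84 to 6.38 (median 5.54) at ZT12 and rose by 1.32 (SE 0.26, adjusted p 0.000725), and Hspa5 (BiP), the HSP70 of the ER, ranged from 6.64 to 7.04 (median 6.77) at ZT8 and from 7.14 to 7.98 (median 7.45) at ZT12 and rose by 0.67 (SE 0.14, adjusted p 0.00115). Edem1, which sorts misfolded proteins for degradation, rose by 0.55 (adjusted p 2.15e-05), Hyou1 by 0.69 (adjusted p 0.00337), Manf by 0.80 (adjusted p 0.00923), Sdf2l1 by 0.88 (adjusted p 0.02) and Pdia3, a disulfide isomerase, by 0.44 (adjusted p 0.000501). The call of Sdf2l1 was lost when ZT12 replicate 5 was left out (highest adjusted p 0.0796, without ZT12 replicate 5). The dimmer probe of Edem1 gave 0.18 (adjusted p 0.243 over all probes). The signalling factors of the response did not pass the test: Atf4 gave -0.13, Ddit3 0.19, Xbp1 -0.05 and Atf6 -0.06. Trib3, a target of ATF4 and CHOP, was the gene that fell.

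Genes that build ribosomes rose in part, while the ribosomal proteins did not pass the test. Of 25 ribosome biogenesis genes, 8 rose and 0 fell (32% called, beside 14.8% of all genes, median 0.29). The count was 4 without ZT12 replicate 1 or without ZT8 replicate 1. Rrp12, needed to export ribosomal subunits, ranged from 0.67 to 1.19 (median 0.86) at ZT8 and from 1.84 to 2.20 (median 2.00) at ZT12, a rise of 1.13 (SE 0.15, adjusted p 2.94e-06). Nop16 rose by 0.57 (adjusted p 0.000217), and Polr1e, a subunit of RNA polymerase I, by 0.65 (adjusted p 0.000626). Nolc1, a nucleolar phosphoprotein, rose by 0.66 (adjusted p 0.0237). The call of Nolc1 was lost when ZT12 replicate 1 or ZT8 replicate 1 or ZT8 replicate 3 was left out (highest adjusted p 0.0586, without ZT12 replicate 1) and under 2 of the 13 other settings. Myc, an activator of these genes, gave 1.37 (adjusted p 0.164). Of the 30 cytosolic ribosomal proteins 0 were called by limma and 1 had an unadjusted p under 0.05, beside 6153 of all 22883 genes. A positive difference was found for 29, and all lay between -0.01 and 0.18 (median 0.09).

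Subunits of the respiratory chain and of the proteasome showed small changes. Of 28 oxidative phosphorylation genes, 2 rose (median 0.09): Cycs, cytochrome c, by 0.34 (adjusted p 0.00551), and Uqcrb by 0.21 (adjusted p 0.0368). The call of Cycs was lost under 3 of the 13 other settings. The call of Uqcrb was lost when any 1 of 9 arrays was left out (highest adjusted p 0.0989, without ZT8 replicate 5) and under 7 of the 13 other settings. The count of the list was 1 without any 1 of 9 arrays. Of 28 proteasome genes, 4 fell and 0 rose (median -0.07): Psmd11 fell by 0.30 (adjusted p 0.00139), Psma5 fell by 0.31 (adjusted p 0.00468), Psmc6 fell by 0.24 (adjusted p 0.0218) and Psma1 fell by 0.25 (adjusted p 0.0422). The call of Psmc6 was lost when ZT12 replicate 3 or ZT12 replicate 5 or ZT8 replicate 4 was left out (highest adjusted p 0.0726, without ZT12 replicate 3) and under 3 of the 13 other settings. The call of Psma1 was lost when any 1 of 9 arrays was left out (highest adjusted p 0.134, without ZT12 replicate 3) and under 5 of the 13 other settings. The proteasome count was 2 without ZT12 replicate 3, ZT12 replicate 5 or ZT8 replicate 4. The called shares of these lists, 7.14% for oxidative phosphorylation and 14.3% for the proteasome, were below and near the 14.8% of all genes. Autophagy genes split, with 3 of 20 higher and 3 lower (30% called). Gabarapl1, a membrane protein of the autophagosome, ranged from 7.88 to 8.16 (median 7.98) at ZT8 and from 6.90 to 7.39 (median 6.95) at ZT12, a log2 difference of -0.94 (SE 0.10, adjusted p 5.56e-08), and Ulk1, the kinase that starts autophagy, fell by 0.93 (SE 0.10, adjusted p 1.27e-07). Sqstm1 (p62), a cargo receptor, fell by 0.31 (adjusted p 0.00262) and lost its call with the mean of its probes. Bnip3, a mitophagy receptor, rose by 0.48 (adjusted p 0.00862).

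Genes of fatty acid synthesis and of its fuel supply leaned upwards. Of 20 listed, 5 rose, 1 fell and 14 did not pass (30% called, beside 14.8% of all genes, median 0.32). Pnpla3 is given above. Thrsp (Spot 14), a lipogenic cofactor that responds to carbohydrate and thyroid hormone, ranged from 5.75 to 7.09 (median 6.87) at ZT8 and from 7.36 to 8.66 (median 8.2) at ZT12, a rise of 1.5 (SE 0.32, adjusted p 0.00126). Agpat2, an enzyme of glycerolipid synthesis, rose by 0.56 (adjusted p 2.14e-05), and Elovl6, the elongase of palmitate, by 0.80 (adjusted p 0.0179). The call of Elovl6 was lost when ZT8 replicate 2 or ZT8 replicate 4 or ZT12 replicate 2 was left out (highest adjusted p 0.0649, without ZT12 replicate 2) and under 1 of the 13 other settings. Elovl5, the elongase of polyunsaturated fatty acids, fell by 0.68 (adjusted p 0.0156). The call of Elovl5 was lost when ZT8 replicate 6 was left out (highest adjusted p 0.0559, without ZT8 replicate 6) and under 2 of the 13 other settings. Of its 2 dimmer probes 1 gave -0.63 and the other, well above background on 3 arrays, 0.63. The core enzymes did not pass the test. Fasn, fatty acid synthase, was 6.96 to 8.33 (median 7.92) at ZT8 and 7.34 to 9.11 (median 8.30) at ZT12, with a difference of 0.52 (adjusted p 0.168). Srebf1, the transcription factor of lipogenesis, gave 0.16 (adjusted p 0.64), Acly 0.57 (adjusted p 0.113) and Scd1 0.11 (adjusted p 0.805). Lpin1, a phosphatidate phosphatase, gave 1.06 (adjusted p 0.0615).

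Cholesterol synthesis and fatty acid oxidation showed few calls. Of 24 sterol genes, 2 rose and 1 fell, a share of 12.5% that is near the 14.8% of all genes. Insig1, which retains the sterol-sensing complex in the ER, rose by 0.67 (adjusted p 0.0422). Stard4, a sterol carrier, fell by 0.44 (adjusted p 0.0014). The call of Insig1 was lost when any 1 of 8 arrays was left out (highest adjusted p 0.135, without ZT12 replicate 4) and under 4 of the 13 other settings. The count of the list was 1 without ZT8 replicate 2, ZT12 replicate 4 or ZT12 replicate 2. Of 26 genes of fatty acid oxidation, 1 rose and 1 fell (7.69%), and every omission of 1 array left 0 or 1 called. Fgf21, the fasting hormone of the liver, fell by 1.53 (adjusted p 0.0425) with a wide spread, from -2.60 to -0.24 (median -0.79) at ZT8 and from -3.38 to -1.36 (median -2.78) at ZT12. Acot4, a peroxisomal thioesterase, rose by 0.60 (adjusted p 0.0425). The call of Fgf21 was lost when any 1 of 10 arrays was left out (highest adjusted p 0.107, without ZT8 replicate 1) and under 4 of the 13 other settings. With normexp correction the difference of Fgf21 was -0.98. The call of Acot4 was lost when any 1 of 9 arrays was left out (highest adjusted p 0.139, without ZT12 replicate 2) and under 5 of the 13 other settings. Cpt1a, the gate of mitochondrial oxidation, gave 0.11 (adjusted p 0.656).

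Of 14 genes of gluconeogenesis and FoxO targets, 2 rose and 2 fell (28.6% called, beside 14.8% of all genes). Irs2, the insulin receptor substrate that rises in fasting, ranged from 1.68 to 2.64 (median 2.37) at ZT8 and from 0.32 to 0.98 (median 0.76) at ZT12, a log2 difference of -1.61 (SE 0.29, adjusted p 0.000213) with no overlap. G6pc, glucose-6-phosphatase, ranged from 5.32 to 6.96 (median 6.31) at ZT8 and from 3.99 to 5.66 (median 5.0) at ZT12, a log2 difference of -1.26 (SE 0.32, adjusted p 0.00621), with overlap. Pck1, the other gluconeogenic gate, gave 0.13 (adjusted p 0.683). Foxo1 rose by 0.36 (adjusted p 0.0231), and Tat is given above. The call of Foxo1 was lost when any 1 of 4 arrays was left out (highest adjusted p 0.0632, without ZT12 replicate 2) and under 1 of the 13 other settings. Igfbp1, a FoxO target, gave -0.73 (adjusted p 0.344).

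The glycogen list held 2 rises and 4 falls of 15 (40% called, beside 14.8% of all genes). The targeting subunits of protein phosphatase 1, which bring the phosphatase to glycogen, moved in opposite directions. Ppp1r3b, a form abundant in liver, ranged from 5.90 to 6.6 (median 6.12) at ZT8 and from 6.80 to 7.48 (median 7.20) at ZT12, a rise of 1.01 (SE 0.11, adjusted p 2.69e-07). Ppp1r3g ranged from -1.76 to 1.19 (median -0.86) at ZT8 and from -4.07 to -1.48 (median -2.68) at ZT12, a log2 difference of -2.05 (SE 0.42, adjusted p 0.000988), and was well above background on 2 of 6 arrays at ZT16. Ppp1r3c fell by 0.92 (adjusted p 0.0494). The call of Ppp1r3c was lost when any 1 of 7 arrays was left out (highest adjusted p 0.191, without ZT12 replicate 5) and under 8 of the 13 other settings. Without ZT12 replicate 5 its difference was -0.59. Gyg, glycogenin, which primes the glycogen chain, fell by 0.52 (adjusted p 0.00184) and Phka2, a regulatory subunit of phosphorylase kinase, fell by 0.42 (adjusted p 0.00052). Slc37a4, the glucose-6-phosphate transporter, rose by 0.45 (adjusted p 0.0223). The call of Slc37a4 was lost when ZT8 replicate 2 or ZT12 replicate 4 or ZT8 replicate 1 was left out (highest adjusted p 0.065, without ZT8 replicate 1) and under 1 of the 13 other settings. Gys2, glycogen synthase, gave 0.25 (adjusted p 0.211) and Pygl, the phosphorylase, -0.10 (adjusted p 0.645).

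Bile acid genes leaned downwards, with 1 of 21 higher and 5 lower (28.6% called, beside 14.8% of all genes, median -0.07). Hsd3b7, an early enzyme of synthesis, ranged from 7.23 to 7.56 (median 7.44) at ZT8 and from 6.28 to 6.76 (median 6.56) at ZT12, a log2 difference of -0.89 (SE 0.10, adjusted p 9.5e-08). Abcb11 (BSEP), the export pump of bile acids, ranged from 6.90 to 7.07 (median 6.99) at ZT8 and from 6.05 to 6.33 (median 6.16) at ZT12, a log2 difference of -0.81 (SE 0.12, adjusted p 1.37e-05), and Klb, the co-receptor of the intestinal hormone FGF15, fell by 0.74 (adjusted p 8.34e-05). None of these overlapped between the times. The call of Klb was lost with the mean of its probes. Amacr fell by 0.35 (adjusted p 0.00408) and Abcg8, a sterol exporter, fell by 0.63 (adjusted p 0.0325). Akr1d1 rose by 0.51 (adjusted p 0.0446). The call of Abcg8 was lost when any 1 of 6 arrays was left out (highest adjusted p 0.0864, without ZT12 replicate 5) and under 2 of the 13 other settings. The call of Akr1d1 was lost when any 1 of 8 arrays was left out (highest adjusted p 0.119, without ZT8 replicate 1) and under 4 of the 13 other settings. Cyp7a1, the rate-limiting enzyme, was 1.63 to 3.36 (median 2.39) and 1.92 to 3.53 (median 2.66), a difference of 0.23 (adjusted p 0.733) and the ranges overlapped.

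Of 11 heme genes, 3 rose and 1 fell (36.4% called, beside 14.8% of all genes). Alas1, the rate-limiting enzyme of heme synthesis, rose by 1.14 (adjusted p 0.0186) and Por, the electron donor of cytochromes P450, ranged from 5.93 to 6.25 (median 6.17) at ZT8 and from 6.48 to 7.11 (median 6.78) at ZT12, a rise of 0.67 (SE 0.14, adjusted p 0.000835). Blvrb rose by 0.34 (adjusted p 0.038) and Ppox fell by 0.30 (adjusted p 0.00444). The call of Alas1 was lost when ZT8 replicate 2 or ZT8 replicate 3 was left out (highest adjusted p 0.0757, without ZT8 replicate 2) and under 1 of the 13 other settings. The call of Blvrb was lost when any 1 of 9 arrays was left out (highest adjusted p 0.0813, without ZT12 replicate 4) and under 6 of the 13 other settings. The count of the list was 2 without ZT8 replicate 2 or ZT8 replicate 3. Of 25 cytochrome P450 genes and their receptors, 4 rose and 0 fell, a called share of 16% that is near the 14.8% of all genes. Nr1i2 (PXR), the receptor of foreign compounds, ranged from 2.33 to 3.04 (median 2.65) at ZT8 and from 2.91 to 3.62 (median 3.51) at ZT12, a rise of 0.76 (SE 0.14, adjusted p 0.000178). Cyp3a13 rose by 0.46 (adjusted p 0.00889) and Cyp2a4 by 0.70 (adjusted p 0.0398), a gene with the close copy Cyp2a5 (0.49, adjusted p 0.0774). The call of Cyp2a4 was lost when any 1 of 9 arrays was left out (highest adjusted p 0.0916, without ZT8 replicate 2) and under 3 of the 13 other settings. Cyp2u1 made up the count, at 0.42, but its 2 dimmer probes gave -0.61 and -0.64.

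In amino acid catabolism and the urea cycle, 5 of 30 rose and 1 fell (20% called, beside 14.8% of all genes, median 0.10). Gpt2, alanine aminotransferase 2, rose by 0.57 (adjusted p 0.00155) and Prodh, proline dehydrogenase, by 0.61 (adjusted p 0.0247). The call of Prodh was lost when any 1 of 4 arrays was left out (highest adjusted p 0.075, without ZT8 replicate 1). Cbs, which makes cystathionine from homocysteine, ranged from 7.04 to 7.32 (median 7.25) at ZT8 and from 6.37 to 6.64 (median 6.48) at ZT12, a log2 difference of -0.71 (SE 0.11, adjusted p 3.05e-05). Asl rose by 0.84 (adjusted p 0.000432) on its brightest probe, but the dimmer probe gave -0.74. In NAD synthesis, 3 of 12 rose and 2 fell (41.7% called). Nampt was joined by Nnmt, which methylates nicotinamide (0.93, adjusted p 0.00203), and Acmsd, which draws tryptophan away from NAD (0.70, adjusted p 0.047). Nmnat3, the mitochondrial NAD synthase, fell by 0.78 (adjusted p 4.88e-05) and Kynu fell by 0.42 (adjusted p 0.0194). The call of Acmsd was lost when any 1 of 9 arrays was left out (highest adjusted p 0.112, without ZT8 replicate 2) and under 6 of the 13 other settings. The call of Kynu was lost when ZT12 replicate 1 or ZT12 replicate 6 or ZT8 replicate 6 was left out (highest adjusted p 0.063, without ZT8 replicate 6) and under 2 of the 13 other settings. The list count was 3 without ZT8 replicate 6. Of 20 NRF2 and glutathione genes, Nfe2l2, which encodes NRF2, fell by 0.48 (adjusted p 0.00128) and Tkt rose by 0.27 (adjusted p 0.0217). The called share of this list was 10%, below that of all genes. The call of Tkt was lost when any 1 of 4 arrays was left out (highest adjusted p 0.0616, without ZT8 replicate 4) and under 3 of the 13 other settings. The count was 1 without ZT8 replicate 2, ZT12 replicate 4 or ZT8 replicate 4.

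Of 20 immediate early and cAMP-responsive genes, 4 were lower and 0 higher (20% called, beside 14.8% of all genes, median -0.16). Besides Egr1 and Klf10, Junb, a partner of FOS, ranged from 4.38 to 4.95 (median 4.69) at ZT8 and from 3.12 to 4.32 (median 3.48) at ZT12, a log2 difference of -1.10 (SE 0.16, adjusted p 1.84e-05). Zfp36, which destabilises AU-rich messages, fell by 0.58 (adjusted p 0.0215). The call of Zfp36 was lost when any 1 of 4 arrays was left out (highest adjusted p 0.0743, without ZT12 replicate 5) and under 1 of the 13 other settings. Fos and Jun gave -0.31 and -0.10, and Nr4a1 gave -1.09 (adjusted p 0.2). In the cell cycle list, 3 of 24 rose and 1 fell (16.7%), near the 14.8% of all genes. Tk1, thymidine kinase, ranged from 2.59 to 3.09 (median 2.67) at ZT8 and from 3.33 to 3.69 (median 3.55) at ZT12, a rise of 0.77 (SE 0.10, adjusted p 2.5e-06), and Rrm2, a subunit of ribonucleotide reductase, rose by 0.90 (adjusted p 0.00491). Ccne1, cyclin E1, fell by 1.06 (adjusted p 0.0258). The call of Ccne1 was lost when any 1 of 5 arrays was left out (highest adjusted p 0.0953, without ZT12 replicate 2) and under 1 of the 13 other settings. Mki67, a marker of cycling cells, gave 0.15 (adjusted p 0.857).

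Among nuclear receptors and their coregulators, 7 of 23 fell and 1 rose (34.8% called, beside 14.8% of all genes). Ppargc1b, a coactivator of mitochondrial and lipogenic genes, ranged from 1.78 to 2.22 (median 1.93) at ZT8 and from 0.34 to 1.01 (median 0.50) at ZT12, a log2 difference of -1.37 (SE 0.18, adjusted p 2.25e-06). Nr2f2 (COUP-TFII) ranged from 1.67 to 1.83 (median 1.76) at ZT8 and from 0.71 to 1.05 (median 0.82) at ZT12, a log2 difference of -0.89 (SE 0.08, adjusted p 2.19e-09), and Cebpa, a hepatocyte factor, fell by 0.58 (SE 0.10, adjusted p 0.000209). Thra, a thyroid hormone receptor, fell by 0.40 (adjusted p 0.00632), Nr1h2 (LXR beta) fell by 0.26 (adjusted p 0.00923) and Rxrb fell by 0.32 (adjusted p 0.0197). The call of Rxrb was lost when ZT8 replicate 2 was left out (highest adjusted p 0.0581, without ZT8 replicate 2). The call of Nr1h2 was lost with the mean of its probes. Ppard rose by 0.92 (adjusted p 0.0034). Hnf4a, the master factor of hepatocytes, gave 0.19 (adjusted p 0.305).

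Among secreted factors and acute phase proteins, many calls were lost when 1 array was left out. Hamp, which encodes the iron hormone hepcidin, ranged from 6.90 to 7.74 (median 7.34) at ZT8 and from 7.66 to 8.28 (median 8.00) at ZT12, a rise of 0.70 (SE 0.13, adjusted p 0.000477). Stat5b, which carries the growth hormone signal, fell by 0.36 (adjusted p 0.013), and Gdf15, a stress hormone, fell by 1.46 (adjusted p 0.0365). The call of Gdf15 was lost when any 1 of 9 arrays was left out (highest adjusted p 0.0946, without ZT8 replicate 3) and under 3 of the 13 other settings. Igf1, the main output of growth hormone in liver, gave 0.10 (adjusted p 0.416). Of the 22 genes of this list 1 rose and 3 fell (18.2% called, near the 14.8% of all genes), a count that was 2 without any 1 of 7 arrays. Of 18 acute phase genes, 4 rose and 3 fell (38.9% called), but leaving out ZT12 replicate 5 left 1, and any 1 of 10 arrays left 1 to 3. Saa1, a serum amyloid gene, ranged from 4.23 to 6.25 (median 5.60) at ZT8 and from 4.63 to 9.51 (median 8.22) at ZT12, a rise of 1.95 (adjusted p 0.041), and Saa2 rose by 1.92 (adjusted p 0.0375). Their sequences are near-identical, so their probes may share signal, which was not tested. The call of Saa1 was lost when any 1 of 9 arrays was left out (highest adjusted p 0.151, without ZT12 replicate 5) and under 4 of the 13 other settings. The call of Saa2 was lost when any 1 of 9 arrays was left out (highest adjusted p 0.137, without ZT12 replicate 5) and under 4 of the 13 other settings. Cebpd, an activator of this response, rose by 0.90 (adjusted p 0.00502).

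Orm1 rose by 0.49 (adjusted p 0.0355), and the fibrinogen chains Fga, Fgb and Fgg gave -0.41 (adjusted p 0.0494), -0.23 (adjusted p 0.0254) and -0.23 (adjusted p 0.0468). The call of Orm1 was lost when any 1 of 9 arrays was left out (highest adjusted p 0.0936, without ZT12 replicate 5) and under 4 of the 13 other settings. The call of Fgb was lost when any 1 of 5 arrays was left out (highest adjusted p 0.0809, without ZT8 replicate 2) and under 2 of the 13 other settings. The call of Fgg was lost when any 1 of 8 arrays was left out (highest adjusted p 0.148, without ZT8 replicate 2) and under 5 of the 13 other settings. The call of Fga was lost when any 1 of 9 arrays was left out (highest adjusted p 0.157, without ZT12 replicate 3) and under 5 of the 13 other settings. For Fga the second probe rose by 0.96 (adjusted p 2.0e-05 over all probes), and the mean of both probes gave 0.28, so its direction is not settled.

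Counting Bhlhe41, 9 called genes with a symbol were well above background on every array of 1 time and on none of the other. Only genes whose bound kept the direction of the change were counted. Of the 9, 8 were higher and 1 lower at ZT12. Hpdl, an iron-dependent dioxygenase of ubiquinone synthesis, was at least 2.89-fold higher at ZT12, where its measured means were -5.91 at ZT8 and -3.35 at ZT12 (adjusted p 8.83e-07). Mthfd1l, of mitochondrial folate metabolism, was at least 2.54-fold higher (means -5.14 and -3.47, adjusted p 0.000203). Dlg2, a scaffold protein, was at least 2.34-fold higher (means -6.06 and -3.66, adjusted p 1.69e-05), and Shh, the Sonic hedgehog ligand, at least 2.26-fold (means -6.07 and -3.71, adjusted p 0.000109). These bounds hold only for the signals used here, and the adjusted p values belong to the measured differences. With normexp correction the log2 differences of Hpdl, Mthfd1l, Dlg2 and Shh were 0.52, 0.44, 0.44 and 0.46. In the authors' table they were 0.87, 0.70, 0.76 and 0.73. All these values are smaller than the bounds, while the calls were kept.

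In the knockout, whose 12 arrays are separate from those of the controls, 3033 of the 22883 genes were called between ZT12 and ZT8. In controls 14.8% of all genes were called. The 2 sets of calls shared 1317 genes, 38.8% of the control calls and 43.4% of the knockout calls, 1284 of them in the same direction. Of the 3396 control calls, 2968 had the same direction in the knockout, called there or not. A call in only 1 genotype therefore does not show that the changes differ. How many of all genes had the same direction in both genotypes was not counted, so the 2968 has no such base beside it. Without the knockout ZT8 array of replicate 3, the knockout had 4316 calls, the controls 3806 and both 1652, which is 43.4% and 38.3% of them. The test of the difference itself, control change minus knockout change, called 287 genes (1.25%). That count rested on the same array: it was 942 without it, and it lay between 143 (without knockout ZT8 replicate 5) and 286 for the other 23 omissions. It was 157 without control ZT12 replicate 5, 179 without control ZT8 replicate 4, 184 without control ZT8 replicate 6, 175 without knockout ZT8 replicate 2 and 187 without knockout ZT12 replicate 1. Each of the 5 genes named next kept its call in all 24 omissions.

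In knockouts, Pdxp ranged from -3.19 to -2.64 (median -2.76) at ZT8 and from -2.45 to -1.89 (median -2.08) at ZT12, beside the control levels given above, and the control and knockout changes of 2.91 and 0.82 differed by 2.09 (SE 0.26, adjusted p 0.000156). Every knockout array lay above the controls at ZT8 and below them at ZT12. Trp53inp2, a regulator of autophagy, changed by 1.12 in control and by 0.25 in knockout liver, unequal by 0.87 (SE 0.12, adjusted p 0.000338). Vac14, a scaffold of phosphoinositide synthesis on endosomes, changed by 1.14 and 0.16, a difference of 0.97 (SE 0.14, adjusted p 0.000338), and Col27a1, a fibrillar collagen, by 1.70 and 0.18, a difference of 1.52 (SE 0.23, adjusted p 0.000751). Fam102a rose by 0.69 in controls, against -0.64 in knockouts, which gave a difference of 1.33 (SE 0.21, adjusted p 0.001). These 5 genes were chosen by the smallest p of this same test. Without the knockout ZT8 array of replicate 3 the differences were 2.08 for Pdxp, 0.88 for Trp53inp2, 1.02 for Vac14, 1.56 for Col27a1 and 1.45 for Fam102a. With normexp correction the difference of Pdxp was 1.08. The dimmer probe of Col27a1 gave 0.28 (adjusted p 0.568 over all probes) in controls, and the mean of both probes gave 0.99 in controls and a difference of 1.47.

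Of the other genes named here, 14 passed the test of the difference. The rise of the chaperones Hspa8 and Hsp90aa1 was larger in controls (1.09 and 1.31) than in knockouts (0.45 and 0.50), with differences of 0.64 (SE 0.13, adjusted p 0.0113) and 0.81 (SE 0.18, adjusted p 0.0179). No other gene of the heat shock list passed it. In the clock, Arntl changed by 2.58 in controls and 4.48 in knockouts, and Ciart by -1.34 and -3.09. Their differences of -1.89 (SE 0.47, adjusted p 0.0373) and 1.75 (SE 0.43, adjusted p 0.0347) lost their calls when any 1 of 11 or 12 of the 24 arrays was left out. The brightest Clock probe, which did not pass in controls, changed by 0.73 in the knockout, and the difference was -0.71 (SE 0.12, adjusted p 0.00171). Bhlhe41 changed by -1.58 in the knockout, and the difference was -2.15 (SE 0.42, adjusted p 0.00736), but it was not well above background at ZT12 in controls, so the control side is a bound and the difference has no settled size. Trib3 and Mrnip fell by less in knockouts (-1.27 and -0.74), with differences of -1.75 (SE 0.37, adjusted p 0.0123) and -1.13 (SE 0.24, adjusted p 0.0145).

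St3gal5 (1.27 in controls and -0.04 in knockouts, difference 1.32, SE 0.26, adjusted p 0.00907), Hsd3b7 (-0.89 and -0.19, difference -0.70, SE 0.14, adjusted p 0.00768) and Acot4 (0.60 and -0.78, difference 1.38, SE 0.29, adjusted p 0.0133) completed the genes that kept this call in every omission. Cpt2, Rrm2 and Gabarapl1 differed by 0.49 (SE 0.12, adjusted p 0.0373), 1.27 (SE 0.32, adjusted p 0.0391) and -0.60 (SE 0.14, adjusted p 0.0274). The calls of Cpt2, Rrm2 and Gabarapl1 were lost when any 1 of 14, 16 and 4 of the 24 arrays was left out, with highest adjusted p values of 0.0789 (without knockout ZT8 replicate 5), 0.0771 and 0.0602 (both without control ZT12 replicate 3). Without the knockout ZT8 array of replicate 3, the 14 differences were 0.74 for Hspa8, 0.78 for Hsp90aa1, -2.17 for Arntl, 1.81 for Ciart, -0.72 for Clock, -1.75 for Bhlhe41, -1.78 for Trib3, -1.17 for Mrnip, 1.47 for St3gal5, -0.65 for Hsd3b7, 1.55 for Acot4, 0.55 for Cpt2, 1.02 for Rrm2 and -0.49 for Gabarapl1, and all 14 stayed called. Other processing settings, 11 or 12 a gene, ended some of these calls: 6 for Ciart, 7 for Arntl, 6 for Cpt2, 3 for Rrm2, 3 for Gabarapl1, 2 for Hsp90aa1 and 1 each for Hspa8, Mrnip and Bhlhe41. With normexp correction the differences were -0.57 (adjusted p 0.254) for Arntl, 0.70 (adjusted p 0.196) for Ciart and -0.36 (adjusted p 0.212) for Bhlhe41, and with the mean of its probes that of Mrnip was -0.58 (adjusted p 0.31). The calls of Hspa8 and Hsp90aa1 were lost with median scaling, and that of Hsp90aa1 also with slide as a fixed block, with highest adjusted p values of 0.0787 and 0.0603.

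**Figure D5:**
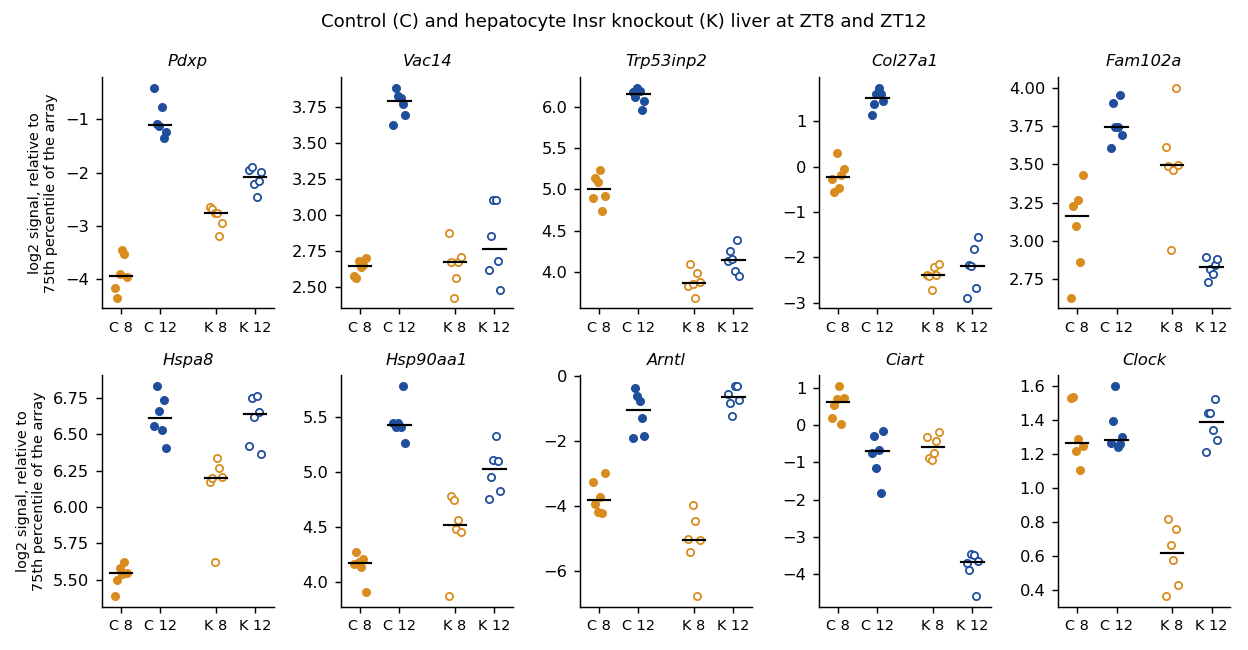
Each panel is 1 gene, the y axis is the log2 signal minus the array's 75th percentile, and each point is 1 array, filled for control (C) and open for knockout (K), at ZT8 and ZT12, with the median of 6 as a bar. Vac14, Trp53inp2 and Col27a1 climb by 1.14, 1.12 and 1.70 in controls against 0.16, 0.25 and 0.18 in knockouts, whereas Arntl climbs by 4.48 in knockouts against 2.58 in controls.

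Few markers of other liver cells passed the test. No marker was called among 13 of Kupffer cells and macrophages, 12 of stellate cells and fibroblasts, 8 of bile duct epithelium, 9 of lymphoid cells and 9 of neutrophils and monocytes (limma, where 14.8% of all genes were called). At an unadjusted p under 0.05 the counts were 0, 4, 0, 1 and 2, beside 6153 of all 22883 genes. Without ZT12 replicate 3, 1 stellate marker was called, and without ZT8 replicate 5 or ZT12 replicate 6, 1 neutrophil or monocyte marker. Leaving out any 1 of 9 arrays moved the count of endothelial markers to 0 or 2, and likewise that of red cell markers. Of 11 endothelial markers, Stab2, a scavenger receptor of the sinusoids, fell by 0.34 (adjusted p 0.0298). The call of Stab2 was lost when any 1 of 6 arrays was left out (highest adjusted p 0.0908, without ZT12 replicate 6) and under 4 of the 13 other settings. Of 6 red cell markers, Hba-a1 fell by 0.71 (adjusted p 0.0357), Hbb-bt and Hbb-b1 gave -0.79 (adjusted p 0.0766) and -0.93 (adjusted p 0.0863), and Ahsp was not well above background on any of the 12 arrays. The summed red cell level was 234 to 654 at ZT8 and 167 to 363 at ZT12, and the call of Hba-a1 was lost when any 1 of 7 arrays was left out (highest adjusted p 0.125, without ZT8 replicate 3) and under 3 of the 13 other settings. Cela1, an elastase that the pancreas also makes, ranged from 5.30 to 5.76 (median 5.41) at ZT8 and from 4.46 to 5.04 (median 4.80) at ZT12, a log2 difference of -0.68 (SE 0.11, adjusted p 5.76e-05), the 1 called of 8 pancreas and fat markers. In bulk liver, fewer cells of a type and less RNA per cell cannot be told apart. The part of red cell RNA in the falls above was not tested.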

How the data were processed

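Liver RNA (200 ng a sample, per the labels' protocols) was labelled with 1 dye on Agilent SurePrint G3 Mouse GE v2 arrays. The intensity values are the processed spot signals as deposited, background-subtracted and detrended by Feature Extraction 10.10.1.1 per the file headers, with flags for spots well above background and no scaling between arrays. Here log2 intensities had the 75th percentile of each array's non-control spots subtracted, spots of a probe were averaged, and probes well above background on at least 6 of 36 arrays were kept (34769 of 56605, of which 91 lacked a value on some array). Each gene was read by its brightest probe, which left 22883 genes. Names came from the files, updated through RefSeq tables of a later build for 28474 matched probes, of which 1380 then differed from the file. limma 3.58.1 in R 4.3.3 fitted 6 group means and the wash batch, a label of the files, to all 36 arrays (28 residual degrees of freedom), and p-values were adjusted by Benjamini-Hochberg over all genes with a threshold of 0.05. The fit was tested on simulated data. No spot of the 12 arrays was saturated, and the arrays' number limits the precision. The 12 arrays lay on 8 slides.

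The log2 values of the authors' series table, deposited for 32801 probes, are quantile normalized (all columns hold the same sorted values, median 7.65) and correlated with those used here at r = 0.988 to 0.991 per array, across probes, which are not independent. They served as an alternative. Their background correction is not given in the sources used here.

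Named are the 15 largest rises and 15 largest falls among genes with a symbol that passed the threshold, lay well above background on each of the 12 arrays and did not overlap between the times, all tested clock and cold genes, up to 5 genes with the smallest p of each other list, up to 5 genes with a bound, and up to 5 with the smallest p for the control minus knockout difference. Other list members are given to account for counts. Some genes that these rules name are counted but not reported here. The comparison and the gene lists were chosen with earlier results of these data known. Same-numbered replicates were not paired. The alternatives covered background correction, scaling, filters, probe choice, covariates and blocks, array weights and single omitted arrays, and the omission of knockout arrays was chosen after seeing the data. Exon positions of the probes were not analysed here.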

Additional observations from a re-analysis of the deposited data

Results flagged for a closer look

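In 16 of the 380 groups of 6 arrays looked at (4.21%), 1 array stood far from the other 5 by Dixon's criterion, and chance alone gives about 1 in 20. Of the chaperones, ZT12 replicate 5 was the highest array for Hsph1 (4.05 against 3.50 for the nearest), Hsp90aa1 (5.78 against 5.45) and Hsp90ab1 (7.40 against 7.24). The same array had the lowest share of probes well above background, 55.2% against 58.4% for the nearest. The highest array stood apart, with the nearest array's value given after it, for Cry1 at ZT8 (replicate 2, -3.37 against -3.90), Tef at ZT12 (replicate 6, 6.69 against 6.26), Acot4 at ZT12 (replicate 2, 1.82 against 1.03), Kynu at ZT8 (replicate 6, 3.36 against 3.10), Tk1 at ZT8 (replicate 4, 3.09 against 2.73), Fgb at ZT12 (replicate 6, 9.55 against 9.42), Cela1 at ZT8 (replicate 4, 5.76 against 5.43) and Mt2 at ZT8 (replicate 6, 4.28 against 2.47). The lowest array stood apart for Stip1 at ZT12 (replicate 6, 1.62 against 1.99), Slc37a4 at ZT12 (replicate 1, 6.55 against 6.79), Klf16 at ZT8 (replicate 2, -0.19 against 0.30) and Nat8 at ZT8 (replicate 1, 3.06 against 4.06).

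The change from ZT8 to ZT12 differed between control and knockout liver, by limma's test of the difference at an adjusted p under 0.05, for 20 of the genes named. Control minus knockout, the difference was positive for Pdxp (2.09), Ciart (1.75), Hspa8 (0.64), Hsp90aa1 (0.81), Acot4 (1.38), Cpt2 (0.49), Rrm2 (1.27), St3gal5 (1.32), Trp53inp2 (0.87), Vac14 (0.97), Col27a1 (1.52), Fam102a (1.33) and Nat8f6 (1.79). It was negative for Trib3 (-1.75), Mrnip (-1.13), Bhlhe41 (-2.15), Arntl (-1.89), Clock (-0.71), Hsd3b7 (-0.70) and Gabarapl1 (-0.60). For Ciart the positive value means a deeper fall in the knockout, and for Arntl and Clock the negative value means a larger rise in it. The calls of 15 of the 20 were kept in all 24 omissions of 1 array, and Ciart, Arntl, Cpt2, Rrm2 and Gabarapl1 lost theirs in some. For Bhlhe41 the control side is a bound, so its value has no settled size, and with normexp correction it was -0.36 and no longer called. Other processing settings also ended the calls of Arntl, Ciart, Cpt2, Rrm2, Gabarapl1, Hspa8, Hsp90aa1, Mrnip and Nat8f6.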

How the results depend on the processing

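The count of called genes lay between 2581 (median scaling) and 5030 (array weights) beside the 3396 reported, and omitting 1 control array left 2725 to 3221. The count of called genes that differed at least 2-fold was 148 with normexp correction, 195 in the authors' table and 233 among probes well above background on all 12 arrays, beside 371. The count for the control minus knockout difference, 287, was 121 with median scaling, 133 with no filter on dim probes, 169 with slide as a fixed block, 940 with array weights and 190 with the mean of all probes, and 143 (without knockout ZT8 replicate 5) to 942 (without knockout ZT8 replicate 3) with 1 array left out. The fit to the 12 arrays alone cannot give it. The causes were not tested. Fga reversed, to a log2 difference of 0.28, with the mean of its probes, which move in opposite directions. Of the 170 called log2 differences given, 169 kept their direction under every setting run, all but that of Fga, 121 also kept their call under every setting with a test, and 129 kept their call whichever control array was left out. Within single wash batches (2 arrays against 2, no test), 37 of the 170 moved by over 1.5 times in at least 1 batch and 0 turned. These arrays also gave the calls, so the kept directions are no independent test. Of the 96 named genes with several probes, 34 had another probe, well above background on all 12 arrays, on the other side of the threshold or of the opposite sign. Asl and Cyp2u1, given above with dimmer probes of the opposite sign, were not among the 96.

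Same-numbered arrays were not paired: their deviations correlated at -0.18 to 0.03, above 0.1 for 0 of 6 numbers, and 0 of 6 arrays correlated best with their own number. With the replicate number as a block, 3373 genes were called between the times and 240 for the difference.

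Dim probes limit the folds: genes not well above background at 1 time have only a bound, and sizes of dim genes shrink with normexp correction.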

Other observations

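Some gene families were chosen after their values were seen, so their counts are descriptions. Of 61 histone genes tested, 5 were higher at ZT12 and 0 lower (median log2 difference 0.15 beside 0.03 for all genes), a share of 8.2% that is near the 7.68% of all genes called higher. Besides H3c15 and H3c14, these were H3c13 with 0.78 (adjusted p 0.000954), the linker histone gene H1f2 with 1.15 (adjusted p 0.00854) and H3c3 with 0.46 (adjusted p 0.0375). Copies of histone genes are alike, and shared signal was not tested. Of the 7 genes of the Nat8 family of N-acetyltransferases, Nat8f5, Nat8f6 and Nat8 rose, the last 2 by 1.67 (adjusted p 9.28e-05) and 0.82 (adjusted p 0.0057). For Nat8f6 the change in knockout liver was -0.12, and the difference of 1.79 (SE 0.40, adjusted p 0.0216) was 1.92 without the knockout ZT8 array of replicate 3, and was not called with slide as a fixed block (adjusted p 0.0663). With normexp correction the control differences were 0.88 for Nat8f6, 0.45 for H3c13 and -0.61 for Klf11, and the control minus knockout difference of Nat8f6 was 1.03.

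Over all genes, 7.68% were called higher and 7.16% lower. Of 13 Krueppel-like factors, zinc finger regulators with many metabolic roles, 5 fell and 1 rose (median -0.30). Besides Klf10 and Klf9, Klf11 fell by 1.29 (adjusted p 0.000757), Klf16 fell by 0.85 (adjusted p 0.000174) and Klf12 fell by 0.38 (adjusted p 0.0287), while Klf3 rose by 0.34 (adjusted p 0.0128). Of 39 DnaJ co-chaperones, which deliver clients to HSP70, 13 rose (33.3%) and 0 fell (median 0.14). Of 13 HSP70 genes 6 rose (46.2%) and 1 fell (median 0.39). The call of H3c3 was lost when any 1 of 8 arrays was left out (highest adjusted p 0.114, without ZT12 replicate 5) and under 5 of the 13 other settings. The call of Klf12 was lost when any 1 of 4 arrays was left out (highest adjusted p 0.087, without ZT12 replicate 3) and under 4 of the 13 other settings. The call of Klf3 was lost when ZT12 replicate 3 was left out (highest adjusted p 0.0504, without ZT12 replicate 3) and under 1 of the 13 other settings.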
